A study of Mus musculus with 20 samples.

Results

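The 10 core genes of the circadian clock were followed in RNA-seq libraries of the mouse temporomandibular joint (TMJ): *Arntl*, *Clock*, *Per1*, *Per2*, *Per3*, *Cry1*, *Cry2*, *Nr1d1*, *Nr1d2* and *Dbp*. They were chosen by name from the 54532 genes of the deposited count table, by matching Ensembl identifiers to symbols. All 10 passed the filter on low counts, which left 15984 genes to test. The RNA came from the condylar head and part of its subchondral bone, in adult mice with floxed *Loxl2* alleles and a tamoxifen-inducible Cre under the aggrecan (*Acan*) promoter (*Acan*-CreERT2;*Loxl2* fl/fl). The 8 control mice received vehicle and the 12 *Loxl2* knockout mice received tamoxifen, so every animal carried the floxed alleles and the Cre. Tamoxifen and the deletion cannot be told apart in this design, and the Cre acts only in cells that use the *Acan* promoter. Neither the labels nor the study's methods gave the hour at which tissue was taken.

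The circadian clock is a feedback loop of transcription that runs in nearly every cell, cartilage and bone included. ARNTL (also called BMAL1) and CLOCK bind E-boxes as a pair and switch on the *Per*, *Cry*, *Nr1d* and *Dbp* genes. PER and CRY proteins then repress that pair, while NR1D1 and NR1D2 (REV-ERBα and REV-ERBβ) repress *Arntl* through RORE elements. DBP is an output of the loop that binds D-boxes, which are found in *Per* genes. In a running clock the *Arntl* transcript is therefore near its lowest when *Dbp*, *Nr1d1* and the *Per* transcripts are high, and the reverse.

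The elements through which the loop is wired are shown first, since they are the sites through which one member acts on another. RefSeq promoter sequences of the GRCm38.p6 build, from 250 bases before to 50 bases after the transcription start, were listed for 9 of the 10 members; *Per2* had no entry. Both strands were searched for the E-box CACGTG, the related E′-box CACGTT, the D-box TTATGTAA or TTACGTAA, the RORE core TAGGTCA and the cAMP response element TGACGTCA, none of which overlapped another in the windows shown. Among all 32851 promoters, 7.15% held the E-box, 4.68% the E′-box, 1.06% the D-box, 2.61% the RORE core and 1.79% the cAMP response element. Before the start alone, the shares were 6.02% for the E-box, 3.85% for the E′-box, 0.931% for the D-box, 2.23% for the RORE core and 1.55% for the cAMP response element. There, 5 of the 9 members held at least one match, counted over 13 windows. The share of all promoters with a match to any of these elements was not computed, so that count has no background to stand beside. *Per3* held the D-box at 2 places, *Per1* an E-box, *Cry1* an E-box and an E′-box, and *Cry2* and *Nr1d1* an E′-box. In 1 of the 2 windows listed for *Arntl* the RORE core lay after the start. For that window and those of *Cry2*, *Nr1d1*, *Nr1d2* and *Dbp*, the bases after the start were not found in the gene's GENCODE transcripts. Their starts thus rest on RefSeq alone. *Ciart*, a clock repressor that recurs in the results, held 3 E-boxes. A match describes these letters in this window and does not show that a factor binds there. Windows of 30 bases are written 5′ to 3′ on the strand of the gene, with the matched element in capitals.
Per3 D-box, chr4:151044853-151044882, minus strand: ccgacccgcgcgTTATGTAAggtactcggg
Per3 D-box, chr4:151044806-151044835, minus strand: acccgcccgcggTTATGTAAcccccgccgt
Per1 E-box, chr11:69098771-69098800, plus strand: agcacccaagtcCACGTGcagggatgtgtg
Cry1 E-box, chr10:85185097-85185126, minus strand: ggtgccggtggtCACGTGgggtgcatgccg
Cry2 E′-box on the opposite strand, chr2:92434218-92434247, minus strand: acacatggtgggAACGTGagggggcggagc
Nr1d1 E′-box on the opposite strand, chr11:98775388-98775417, minus strand: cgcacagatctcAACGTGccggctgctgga
Ciart E-box, chr3:95882327-95882356, minus strand: tgcatctagagtCACGTGttgccggtaagc

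The libraries held 11153820 to 27045668 counts each. The targeted gene, *Loxl2*, did not fall with the knockout label: it ran from 15.97 to 103 CPM (counts scaled to a common library size by TMM) in control, with a median of 70.2, and from 28.8 to 126 in knockout, with a median of 109.5. The log2 fold change of 0.64 (SE 0.28) did not pass edgeR's quasi-likelihood test (adjusted p = 0.101), so the group names below are those of the labels. A count over the whole gene cannot show whether single exons were lost. Cartilage markers were present, with a summed level of the 15 chondrocyte genes of 157 to 4459 CPM in control and 2155 to 7624 in knockout. Control replicate 8 stood apart, holding the lowest chondrocyte sum and the highest skeletal muscle sum, 206298 CPM. The 9 osteoclast markers all passed that test, higher in the libraries labelled knockout (summed level 513 to 5615 CPM against 153 to 1047). Of 11 osteoblast and osteocyte markers 6 passed, all higher (4027 to 38896 CPM against 1311 to 12335). Of 12 chondrocyte markers tested 3 passed, also higher. All 14 skeletal muscle markers had log2 fold changes below 0, and 6 of them passed (42067 to 107269 CPM against 59854 to 206298). Of all genes tested 23.0% passed. Transcripts of the Y chromosome were found in 3 of 8 control and 6 of 12 knockout libraries. The study's methods give equal numbers of males and females in each group, which the control count does not match. In bulk tissue, fewer cells of a type and less RNA per cell cannot be told apart.

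All 10 genes were detected in every library. The levels are given per kilobase of exon where genes are set side by side. *Nr1d1* was the most abundant transcript, at a median of 87.6 CPM per kb in control and 82.7 in knockout, and *Arntl* the least, at 0.986 and 1.197. Between them, in both groups, the medians followed the order *Dbp*, *Nr1d2*, *Per1*, *Cry2*, *Per3*, *Per2*, *Cry1* and *Clock*. Neighbours in that order were not equally well separated. *Dbp* exceeded *Nr1d2* in 8 of 8 control and 12 of 12 knockout libraries, and *Cry1* exceeded *Clock* in 8 of 8 and 11 of 12. *Nr1d2* exceeded *Per1* in 7 of 8 control but only 7 of 12 knockout libraries, and *Per3* exceeded *Per2* in 7 of 8 and 9 of 12, at medians of 8.65 and 8.46 CPM per kb in control. The repressors of *Arntl* and the output gene *Dbp* thus stood at the top of the order, and the activators at the bottom.

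The annotation limits some of these values, because the use of strand in counting was not given in the sources used here. *Dbp* (chr7:45705088-45710203, plus strand, GRCm38) shares 539 exon bases, 18.01% of its exons, with *Sphk2* on the opposite strand. *Nr1d1* shares 8.55% with *Thra* on the opposite strand, *Cry2* 4.67% with the non-coding *D930015M05Rik* and *Arntl* 0.439% with *Gm45355*. No exon of the other 6 members overlapped another gene.

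**Figure D1:**
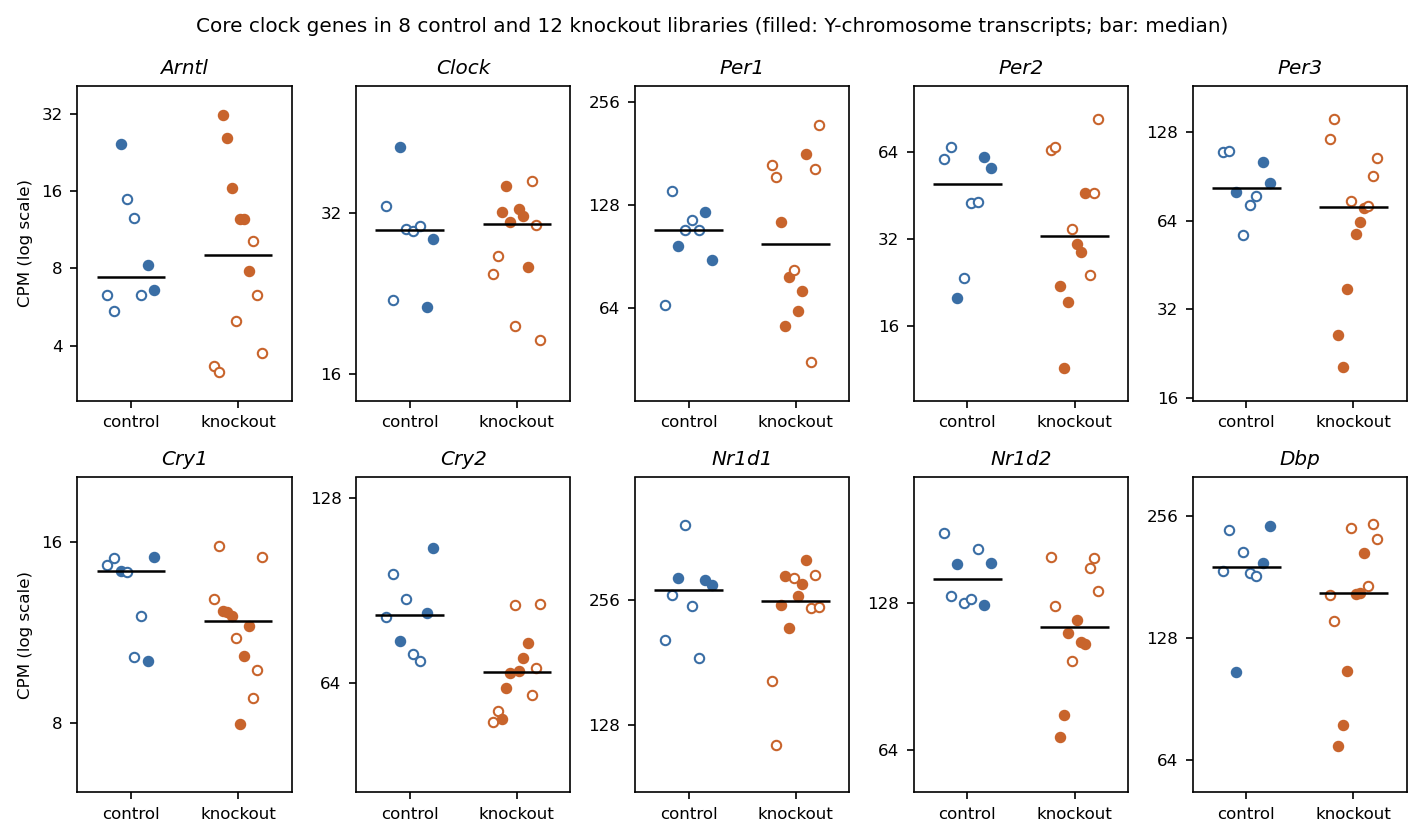
Level of each core clock gene in CPM on a log scale, for 8 control (blue) and 12 knockout (orange) libraries; bars are medians and filled points are libraries with Y chromosome transcripts. The groups overlapped for every gene, and *Arntl*, *Per2* and *Per3* spread most widely in the libraries labelled knockout.

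The clock genes of the 2 groups overlapped, and 1 of the 10 differed. *Cry2*, a repressor of the ARNTL and CLOCK pair, was lower in the libraries labelled knockout, and the other 9 did not pass the test. Across the transcriptome 23.0% of the 15984 genes tested differed between the groups (3673 genes, 1918 higher and 1755 lower), beside which 1 of 10 members is the lower share. The median log2 fold change of the 10 members was -0.20, against -0.02 over all genes tested, with 2 members above 0 and 8 below.

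*Cry2* (chr2:92403646-92434043, minus strand) ran from 69.6 to 106 CPM in control, with a median of 82.5, and from 55.3 to 86.2 in knockout, with a median of 66.7. In 10 of the 12 knockout libraries it lay below the control median, and the ranges overlapped. The fold change was -0.31 on the log2 scale (SE 0.10), with an edgeR adjusted p of 0.0267. The call was lost without control replicate 2 (adjusted p = 0.0612), replicate 4 (0.0574) or replicate 8 (0.0844), and with the osteoclast markers (0.830) or the skeletal muscle markers (0.232) as a covariate. It was also lost with library totals alone as scaling (0.230) and with no filter on low counts (0.0644). The osteoclast covariate also left 0 of all genes called by edgeR, with 1254 at an unadjusted p under 0.05, and the part of those cells in the *Cry2* difference was not tested.

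*Arntl* (chr7:113207465-113314126, plus strand) ran from 5.47 to 24.5 CPM in control, with a median of 7.42, and from 3.17 to 31.6 in knockout, with a median of 9.01. The knockout range enclosed the control range, and the log2 fold change was 0.12 (SE 0.42, adjusted p = 0.870). Its sign rested on single libraries, since it was -0.13 without knockout replicate 3 and -0.06 without replicate 4. It was -0.29 with the presence of Y transcripts in the fit. *Clock*, the partner of *Arntl*, had a median of 29.8 CPM in control and 30.6 in knockout. Its fold change was -0.05 on the log2 scale (SE 0.14, adjusted p = 0.839) and 0.10 with library totals alone as scaling.

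The *Per* genes, whose proteins repress the ARNTL and CLOCK pair, did not pass the test. *Per1* ran from 65.6 to 141 CPM in control, with a median of 108, and from 44.7 to 219 in knockout, with a median of 98.4. *Per2* ran from 20.0 to 66.2 CPM in control, with a median of 49.6, and from 11.4 to 82.9 in knockout, with a median of 32.6. *Per3* ran from 57.2 to 111 CPM in control, with a median of 83.1, and from 20.3 to 142 in knockout, with a median of 71.5. For all 3 the knockout libraries held both the lowest and the highest value. The log2 fold changes were 0.14 for *Per1* (SE 0.26, adjusted p = 0.739), -0.23 for *Per2* (SE 0.31, adjusted p = 0.629) and -0.24 for *Per3* (SE 0.28, adjusted p = 0.551), each smaller than its SE. That of *Per1* was -0.08 with the osteoclast covariate.

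*Cry1*, the paralog of *Cry2*, had medians of 14.3 and 11.8 CPM and lay below the control median in 10 of 12 knockout libraries, with a log2 fold change of -0.18 (SE 0.12, adjusted p = 0.300). *Nr1d1* ran from 185 to 387 CPM in control, with a median of 269.6, and from 114 to 319.8 in knockout, with a median of 254. It had a log2 fold change of -0.11 (SE 0.16, adjusted p = 0.654), which turned to 0.04 with library totals alone. *Nr1d2*, the second repressor of *Arntl*, ran from 127 to 178 CPM in control, with a median of 143, and from 68.2 to 159 in knockout, with a median of 114. Its log2 fold change was -0.31 (SE 0.14, adjusted p = 0.110), as large as that of *Cry2* with a wider error. *Dbp*, the output gene, ran from 105 to 243 CPM in control, with a median of 192, and from 69.2 to 246 in knockout, with a median of 165. The groups overlapped over most of their range, and the log2 fold change was -0.23 (SE 0.21, adjusted p = 0.461).

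**Figure D2:**
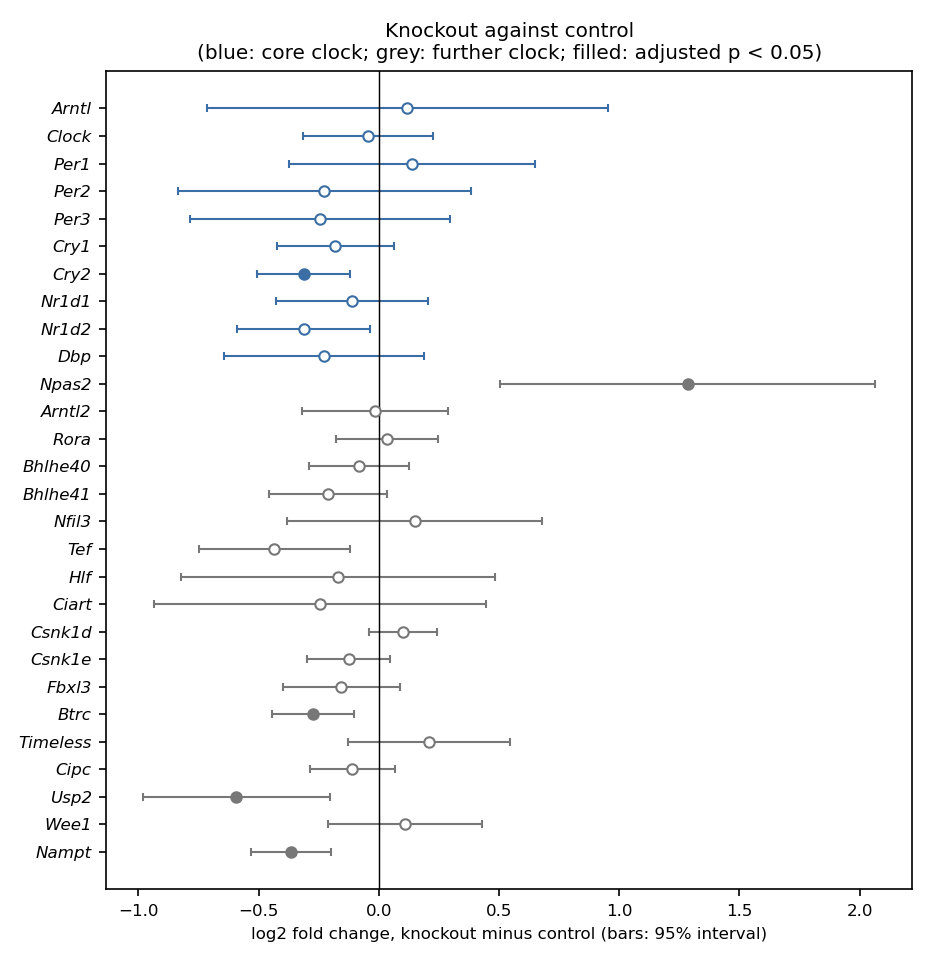
Log2 fold change of each clock gene, knockout minus control, with bars showing the 95% interval (1.96 SE on each side); blue marks the core clock, grey the further clock genes, and filled points passed an adjusted p of 0.05. Among the core genes *Cry2* is filled, at -0.31, and among the further genes *Npas2*, at 1.29, lies farthest from 0.

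Several clock genes varied widely between libraries of one group. The SD of *Arntl* on the log2 scale was 0.76 in control, at percentile 78.6 of all genes tested, and 1.10 in knockout, at percentile 94.3. *Per2* followed with 0.66 and 0.83, and *Per3* with 0.33 and 0.86, which placed it at percentile 41.2 in control and 88.2 in knockout. *Per1* lay at percentiles 42.5 and 84.7, *Dbp* at 48.4 and 76.6 and *Nr1d2* at 12.0 and 56.7. *Cry2* varied little, at percentiles 17.1 and 22.1. The SD was larger in knockout than in control for 9 of the 10 members, by 2.61 times for *Per3*, 2.27 times for *Per1* and 2.08 times for *Nr1d2*; over all genes tested it was larger in knockout for 36.9%. These SDs are descriptions of 8 and 12 libraries and were not tested.

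The range of single genes shows the same spread. The highest library exceeded the lowest 4.48-fold for *Arntl* in control and 9.94-fold in knockout. For *Per2* the ratio was 3.31 and 7.25, and for *Per3* 1.94 and 6.99. *Cry2* ranged 1.53-fold and 1.56-fold. A range tends to widen with the number of libraries, which was 8 in control and 12 in knockout. Within the 6 knockout libraries with Y chromosome transcripts and the 6 without, it was 4.05-fold and 3.22-fold for *Arntl*. For *Per2* it was 4.03-fold and 3.45-fold, and for *Per3* 3.50-fold and 1.97-fold. Those sets are smaller than either group, and the part of this split in the spread was not tested.

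In knockout, the libraries with the most *Arntl* held the least *Per2*, *Per3* and *Dbp*. Knockout replicates 3, 4 and 5 had the highest *Arntl* of their group, at 31.6, 25.8 and 16.5 CPM. The same 3 libraries held the lowest *Per2* (21.96, 11.4 and 19.4 CPM), the lowest *Per3* (26.1, 20.3 and 37.6 CPM) and the lowest *Dbp* (69.2, 78.0 and 106 CPM). At the other end, knockout replicates 1, 2 and 12 had the lowest *Arntl*, at 3.33, 3.17 and 3.73 CPM. They held the highest *Per2* (64.9, 66.4 and 82.9 CPM) and the highest *Per3* (122, 142 and 104 CPM), but not the highest *Dbp* (163, 141 and 224 CPM). Knockout replicates 3, 4 and 5 all held Y chromosome transcripts and replicates 1, 2 and 12 did not, so these ends also differed in that. In control, replicate 3 had the highest *Arntl*, at 24.5 CPM, with the lowest *Per2*, at 20.0 CPM, and the lowest *Dbp*, at 105 CPM. Its *Per3*, at 80.1 CPM, was mid-range, and the lowest *Per3* of the group, 57.2 CPM, was in replicate 4, which had the second highest *Arntl*. The ratio of *Per3* to *Arntl* in CPM ran from 3.27 to 20.3 in control and from 0.785 to 44.7 in knockout, a 56.9-fold range.

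**Figure D3:**
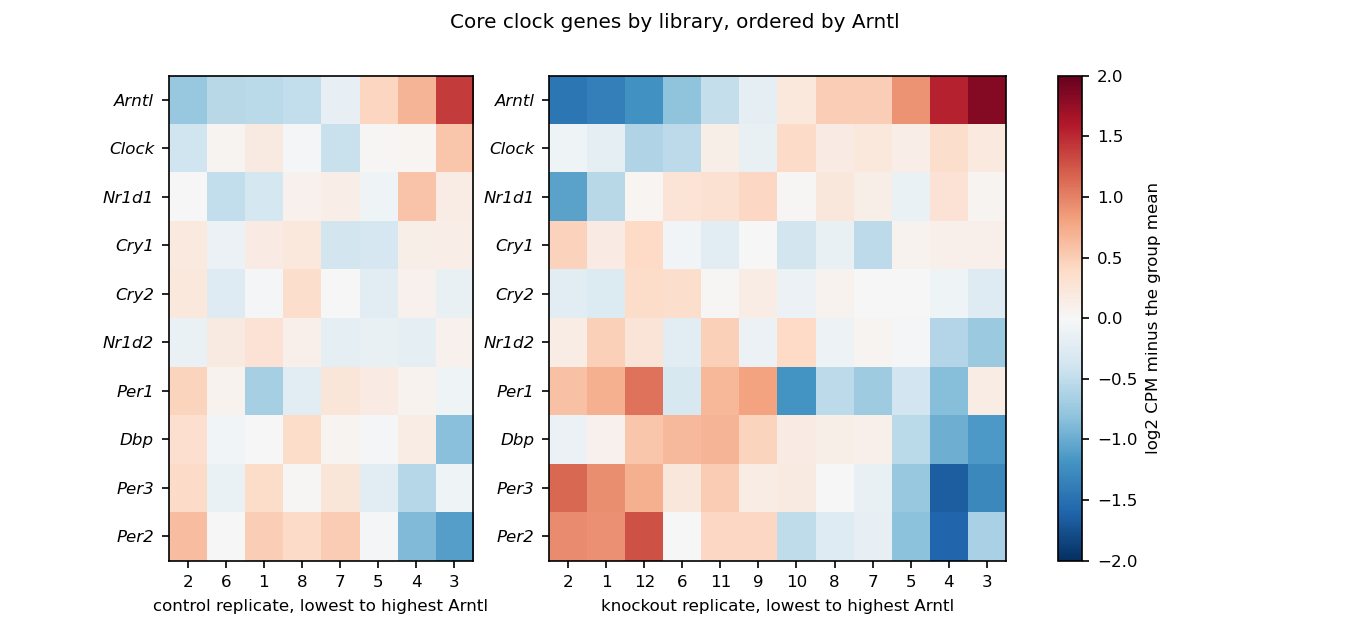
Log2 CPM of each core clock gene minus its group mean (colour, red above and blue below), with libraries of each group ordered from lowest to highest *Arntl* and named by replicate number. The rows of *Per2*, *Per3* and *Dbp* are blue in knockout replicates 3, 4 and 5, where *Arntl* is reddest, and the row of *Nr1d1* stays pale there.

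The relation was tested across all genes by adding the library's *Arntl* level, centred within its group, to the edgeR fit, so that a difference between the groups could not enter. Of 15983 genes, 21 followed *Arntl* at an adjusted p under 0.05 (0.131%), 12 with a positive and 9 with a negative slope. *Per2* and *Per3* were 2 of these, out of the 9 members other than *Arntl*. Of the 9, 2 had positive slopes and 7 negative ones, with a median of -0.21 against -0.01 over all genes tested.

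*Per2* (chr1:91415982-91459324, minus strand) changed by -0.69 log2 units per log2 unit of *Arntl* (SE 0.08, edgeR adjusted p = 0.000237). *Per3* (chr4:151003652-151044665, minus strand), whose promoter holds the pair of D-boxes printed above, changed by -0.60 (SE 0.08, adjusted p = 0.00101). Both calls held with each library left out in turn, with an adjusted p of at most 0.00168 for *Per2* and 0.0122 for *Per3*. *Per3* lost the call with library totals alone as scaling (adjusted p = 0.0663) and with the presence of Y transcripts in the fit (0.166). Both lost it with the replicate number as a block in the 16 libraries whose numbers occur in both groups. The adjusted p was then 0.630 for *Per2* (slope -0.61) and 0.628 for *Per3* (slope -0.80). That fit called 0 genes by edgeR, with 839 at an unadjusted p under 0.05. In control alone 0 genes were called by edgeR, with 420 at an unadjusted p under 0.05, and the slopes there were -0.79 for *Per2* and -0.26 for *Per3*.

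*Dbp* had a slope of -0.41 (SE 0.09), which did not pass (adjusted p = 0.109). It passed without knockout replicate 2 (-0.47, adjusted p = 0.0270) and with the skeletal muscle markers as a covariate (-0.45, adjusted p = 0.0440). *Per1* had a slope of -0.31 (SE 0.12, adjusted p = 0.537) and *Nr1d2* of -0.21 (SE 0.06, adjusted p = 0.397). The *Cry* genes had the slopes nearest to 0, at -0.08 (SE 0.06) for *Cry1* and -0.07 (SE 0.05) for *Cry2*, with adjusted p of 0.848 and 0.820. Above 0, *Clock*, the partner of *Arntl*, had a slope of 0.21 (SE 0.06, adjusted p = 0.225).

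*Nr1d1*, whose protein represses *Arntl*, was not on the opposing side. Its slope was 0.17 (SE 0.08, adjusted p = 0.665), and it stayed above 0 with each library left out in turn (0.10 to 0.22). The library with the least *Arntl*, knockout replicate 2, also had the least *Nr1d1*, 114 CPM, and knockout replicate 4, with the second highest *Arntl*, had 292 CPM. The ratio of *Nr1d1* to *Arntl* ranged 8.38-fold over the knockout libraries. *Nr1d1* and *Nr1d2*, which are often treated as a pair, had slopes of opposite sign.

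**Figure D4:**
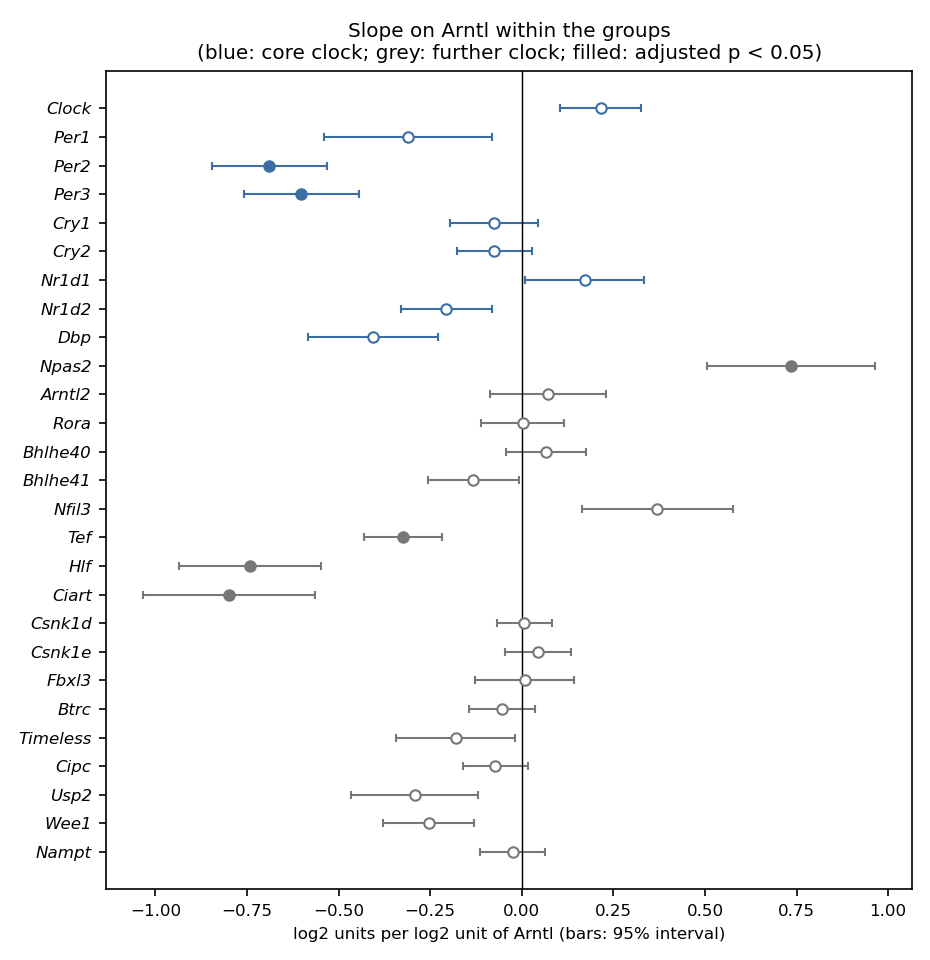
Slope of each clock gene on *Arntl* in log2 units per log2 unit, within groups, with bars showing the 95% interval (1.96 SE on each side); blue marks the core clock, grey the further clock genes, and filled points passed an adjusted p of 0.05. *Per2*, *Per3*, *Tef*, *Hlf* and *Ciart* are filled below 0 and *Npas2* above 0.

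Correlations of *Arntl* with each of the other 9 members were computed in control and in knockout, 18 relations in all, on log2 CPM. The permutation p-values are two-sided, exact over all 40320 pairings for the 8 control libraries and from 100000 resamples for the 12 knockout libraries. They were not adjusted, since the slope fit above gives the adjusted values over all genes. By Pearson's r, 8 of the 18 relations had a p under 0.05. The genes of one library share its depth and composition, so the relations are not independent of each other.

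*Per2* ran against *Arntl* in both groups, with r = -0.90 in control (exact permutation p = 0.00320) and r = -0.90 in knockout (permutation p = 9.0e-05). Spearman's rho was -0.79 (exact permutation p = 0.0279) and -0.90 (permutation p = 0.00017). After removal of the 2 libraries farthest from the *Arntl* median, r was -0.56 in control (exact permutation p = 0.218) and -0.90 in knockout (permutation p = 0.00071). That removal leaves fewer libraries and a narrower range of *Arntl*, so it cannot show what the control relation rested on. Across alternative settings the control relation of *Per2* kept a p under 0.05 in 9 and lost it in 2, with a negative sign in all.

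*Per3* had the closest of the 18 relations, with r = -0.95 and rho = -0.98 in knockout (permutation p = 1e-05 for both, the smallest the resamples can give). Without the 2 farthest libraries it was r = -0.93 (permutation p = 7.0e-05). In control r was -0.62 (exact permutation p = 0.0974) and rho was -0.62 (exact permutation p = 0.115), and r was -0.61 without the 2 farthest libraries. The slope of *Per3* was steeper by -0.47 in knockout than in control (SE 0.15), which did not pass the test of the difference (edgeR adjusted p = 0.803). No gene passed that test by edgeR, and 880 genes had an unadjusted p under 0.05.

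*Dbp* had r = -0.75 in both groups (exact permutation p = 0.0384 in control and permutation p = 0.00518 in knockout), but rho was -0.33 and -0.52 (exact permutation p = 0.428 and permutation p = 0.0860). In control r was -0.27 without replicate 3 alone. That library had the highest *Arntl* of its group, so leaving it out cannot show what the relation rested on. After removal of the 2 farthest libraries, which narrows the range of *Arntl*, r was -0.46 in control (exact permutation p = 0.399) and -0.40 in knockout (permutation p = 0.254).

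*Nr1d2* had r = -0.25 in control (exact permutation p = 0.553) and -0.73 in knockout (permutation p = 0.00809), the latter -0.36 without the 2 farthest libraries (permutation p = 0.292). *Per1* had r = 0.02 in control (exact permutation p = 0.952) and -0.61 in knockout (permutation p = 0.0399). The knockout relation of *Per1* lost its p under 0.05 in 10 alternative settings and kept it in 7, with a negative sign in all. On the positive side *Clock* had r = 0.63 in control (exact permutation p = 0.102) and 0.72 in knockout (permutation p = 0.00895, rho = 0.74, permutation p = 0.00834), the latter 0.70 without the 2 farthest libraries. *Nr1d1* had r = 0.55 in control (exact permutation p = 0.159) and 0.47 in knockout (permutation p = 0.120). For *Cry1* and *Cry2* r lay between -0.38 and -0.08 in both groups, with no p under 0.05. Without the 2 farthest libraries *Cry1* had r = -0.78 in control (exact permutation p = 0.0444) and -0.68 in knockout (permutation p = 0.0325). Its rho was then -0.54 (exact permutation p = 0.297) and -0.65 (permutation p = 0.0494). *Cry2* had r = -0.49 in control (exact permutation p = 0.332) and 0.02 in knockout (permutation p = 0.950) in that run.

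Among the members other than *Arntl*, some pairs of targets moved together and others did not. *Per2* and *Per3* had r = 0.77 in control and 0.91 in knockout, and *Per2* and *Dbp* had 0.68 and 0.67. *Clock* and *Per2* had r = -0.71 in control and -0.72 in knockout. *Per1* and *Per2* had r = 0.02 in control and 0.81 in knockout, and *Per3* and *Dbp* had 0.17 and 0.78. *Nr1d1* ran against *Per2* (-0.49 and -0.42), *Per3* (-0.47 and -0.48) and *Nr1d2* (-0.68 and -0.32), and *Per1* and *Nr1d2* had -0.80 in control and 0.29 in knockout. These are descriptions over 8 and 12 libraries.

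**Figure D5:**
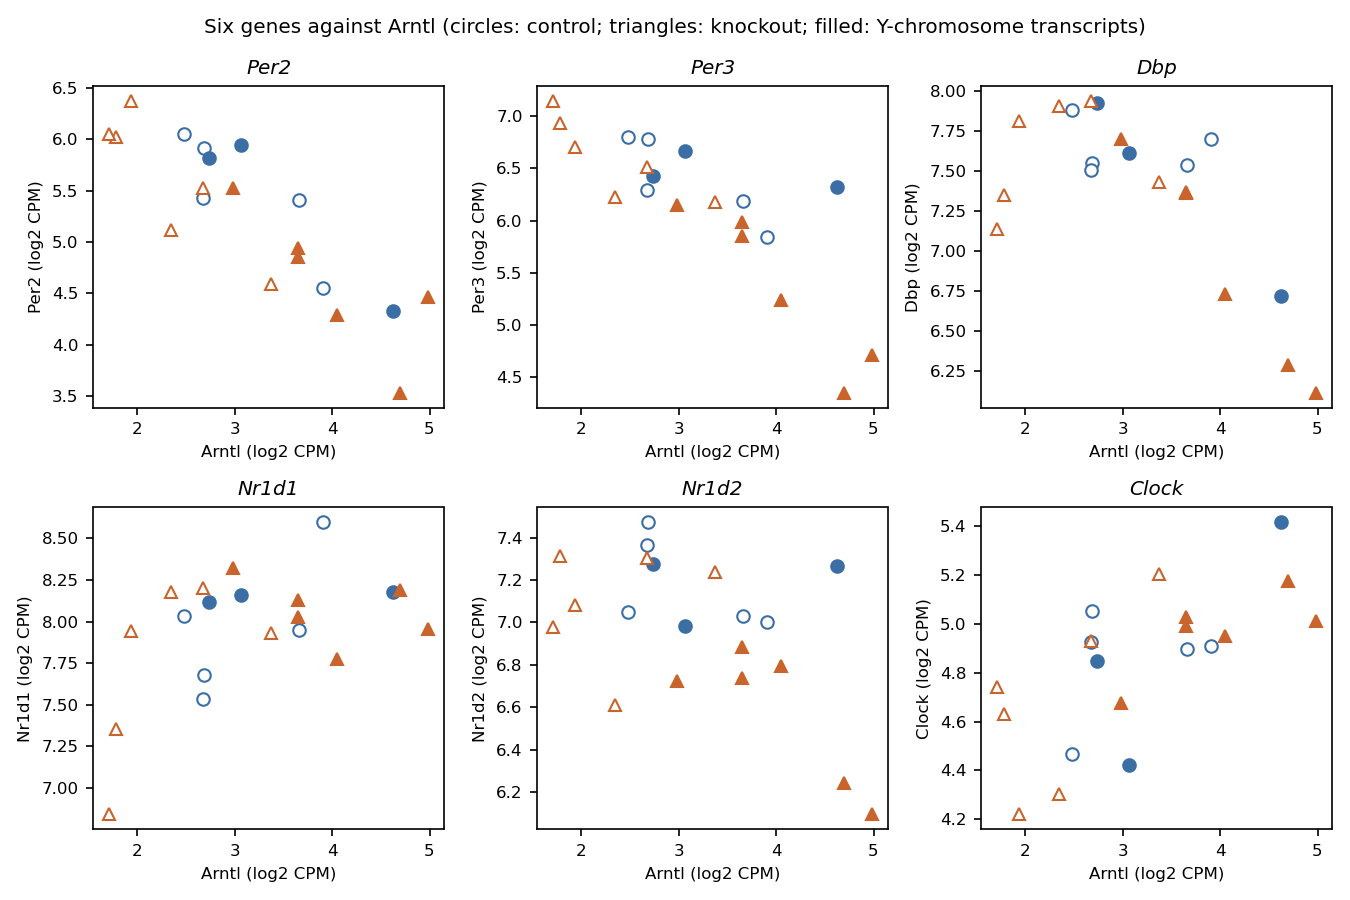
Log2 CPM of 6 core clock genes against that of *Arntl* in control (circles) and knockout (triangles) libraries; filled symbols are libraries with Y chromosome transcripts. *Per2* and *Per3* fall along a line in the libraries labelled knockout (r = -0.90 and -0.95), *Dbp* is lowest where *Arntl* is highest, and *Nr1d1* is not.

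The labels give no sex. In a step chosen after seeing the data, transcripts of *Ddx3y*, *Eif2s3y*, *Kdm5d* and *Uty* were used to see whether libraries split along it. A library counted as having Y transcripts at a summed level of at least 10 CPM. In knockout the 6 libraries with them held 7.79 to 31.6 CPM of *Arntl*, with a median of 14.5, and the 6 without them 3.17 to 10.2, with a median of 4.36. The sets overlapped by replicate 9 of the first and replicate 10 of the second. In control the 3 libraries with Y transcripts held 6.57 to 24.5 CPM of *Arntl* and the 5 without them 5.47 to 14.9. Over both groups *Arntl* was higher by 1.31 log2 units with Y transcripts (SE 0.35), which did not pass (edgeR adjusted p = 0.252). Of 15984 genes, 23 passed that comparison (0.144%), 10 of them on the X or Y chromosome, and 0 of the 10 core clock genes were among them. Without adjustment 1332 genes had a p under 0.05.

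The relations were also read within the knockout libraries with and without Y transcripts, 6 of each. *Per3* was negative in both, with r = -0.93 (exact permutation p = 0.00417) and -0.84 (exact permutation p = 0.0375). *Per2* had r = -0.82 (exact permutation p = 0.05) and -0.89 (exact permutation p = 0.0167). *Dbp* split: r was -0.98 with Y transcripts (exact permutation p = 0.00139) and 0.27 without them (exact permutation p = 0.613). *Cry2* likewise had r = -0.95 and 0.03, and *Cry1* had 0.43 and -0.92 (exact permutation p = 0.419 and 0.00694). The difference between the 2 sets was not tested. With Y transcripts as a factor in the slope fit 3 genes were called; *Per2* was among them, at -0.80 (adjusted p = 0.0113). Whether sex plays a part in the *Arntl* level was not tested beyond these values.

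A list of 20 further clock genes was read in the same fits, 18 of which passed the filter. In the slope fit, 4 of the 18 were called, against 0.131% of all genes. *Npas2*, which can take the place of *Clock* beside ARNTL, rose with *Arntl* at 0.74 log2 units per log2 unit (SE 0.12, adjusted p = 0.00932). *Hlf* and *Tef*, which belong to the same family of D-box factors as *Dbp*, fell at -0.74 (SE 0.10, adjusted p = 0.00101) and -0.32 (SE 0.05, adjusted p = 0.0107). *Ciart*, a repressor of the ARNTL and CLOCK pair, fell at -0.80 (SE 0.12, adjusted p = 0.00472). In knockout replicates 3, 4 and 5, those with the highest *Arntl*, *Hlf* stood at 8.99, 3.69 and 8.31 CPM and *Ciart* at 4.17, 2.42 and 5.50, the lowest of the group in each case. With Y transcripts as a factor, the call held for *Ciart* (adjusted p = 0.0302) and was lost for *Hlf* (0.0939), *Tef* (0.307) and *Npas2* (0.633). It was also lost without knockout replicate 4 for *Npas2* (0.0674) and *Tef* (0.0734), and without replicate 3 for *Tef* (0.0507). In knockout alone the call was lost for *Ciart* (0.0924), *Npas2* (0.0534) and *Tef* (0.0553). With the replicate block it was lost for all 4, at an adjusted p of 0.718 for *Hlf* to 0.9996 for *Ciart*. In control alone it was lost for all 4 as well.

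The opposing D-box factor *Nfil3*, which represses the genes that DBP, TEF and HLF switch on, had a slope of 0.37 (SE 0.10, adjusted p = 0.293). The *Arntl* activator *Rora* had a slope of 0.00 (SE 0.06, adjusted p = 0.999). The kinase genes *Csnk1d* and *Csnk1e* had slopes of 0.01 and 0.04. *Wee1*, a cell cycle kinase gene driven through E-boxes, had a slope of -0.25 (SE 0.06, adjusted p = 0.180). *Per2*, *Per3*, *Tef*, *Hlf* and *Ciart* thus changed against *Arntl*, and no kinase gene of the list passed the test.

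Between the groups, 4 of the 18 were called, 1 higher and 3 lower, beside 23.0% of all genes tested. *Npas2* ran from 0.841 to 8.75 CPM in control and from 2.54 to 18.7 in knockout and lay above the control median in 12 of 12 knockout libraries (log2 fold change 1.29, SE 0.40, adjusted p = 0.0244). *Nampt*, a clock-controlled enzyme of NAD synthesis, was lower (-0.36, SE 0.09, adjusted p = 0.00565). *Usp2*, a clock-controlled deubiquitinase (-0.59, SE 0.20, adjusted p = 0.0358), and *Btrc*, which marks PER proteins for breakdown (-0.27, SE 0.09, adjusted p = 0.0276), were also lower. None of these 4 calls held with the osteoclast markers as a covariate (adjusted p of 0.602 to 0.907). With the skeletal muscle markers the call was lost for *Nampt*, *Usp2* and *Btrc*, and with library totals alone or no filter for *Usp2* and *Btrc*. *Btrc* also lost it without control replicate 1, 3, 4 or 8 (adjusted p of at most 0.0672). *Usp2* lost it without control replicate 4, 6 or 8 and without knockout replicate 2, 3, 4, 7, 8 or 10 (adjusted p of at most 0.115).

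Of 12 listed genes that respond to glucocorticoids, hormones with a daily rhythm, 11 passed the filter. In the slope fit 0 of 11 were called by edgeR and 3 had an unadjusted p under 0.05, against 7.51% of all genes tested, with a median slope of -0.08. *Tsc22d3* had a slope of -0.28 (SE 0.09, adjusted p = 0.414) and *Cdkn1a* of 0.31 (SE 0.07, adjusted p = 0.0650). Between the groups 5 of 11 were called, beside 23.0% of all genes tested. *Mt1* (0.94, SE 0.24, adjusted p = 0.00846), *Errfi1* (0.58, SE 0.15, adjusted p = 0.0119) and *Cdkn1a* (0.56, SE 0.18, adjusted p = 0.0260) were higher, and *Pdk4* (-1.04, SE 0.25, adjusted p = 0.00613) and *Sgk1* (-0.38, SE 0.12, adjusted p = 0.0317) were lower. Of the cell type lists, none had a gene called in the slope fit, but 3 of 9 osteoclast and 3 of 8 neuron and glia markers had an unadjusted p under 0.05 (7.51% over all genes), with median slopes of -0.39 and -0.80, and their part in the slopes was not tested. With the osteoclast markers as a covariate 14 genes followed *Arntl*. Of the 4 Y chromosome genes named above, 0 were called by edgeR in the slope fit. An unadjusted p under 0.05 was found for 4 of 4, with a median slope of 2.10.

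Pearson's r with *Arntl* was ranked over the 20 libraries, centred within group, among 13273 protein-coding genes with a mean of at least 1 CPM. The values are descriptions, since the libraries share composition. *Per2* had the lowest r of all, -0.90, and *Per3* the next lowest, -0.89, while *Dbp* ranked 11th from the bottom, at -0.75. Outside the members the 5 lowest were *Hlf* (-0.88), *Clec14a* (-0.86), *Ciart* (-0.86), *Tef* (-0.85) and *Smarca2* (-0.80), 3 of them from the list of further clock genes. The 5 highest were *Spon2* (0.92), *Rnft1* (0.85), *Zmat3* (0.84), *Npas2* (0.82) and *Ppp1r27* (0.81). *Spon2*, a secreted matrix protein, averaged 9.64 CPM in control and 38.5 in knockout and was the most like *Arntl* of all. *Clock* had r = 0.68 and *Nr1d1* 0.49.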

How the data were processed

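The authors trimmed paired-end NovaSeq reads, mapped them to mm10 and summed them over genes by featureCounts. The deposited values are raw counts per gene, not normalized. The aligner, annotation release and use of strand are not given in the sources used here. Of 54532 identifiers, 54495 matched GENCODE M21, which gave symbols and coordinates on the same build. Groups and replicate numbers came from the sample titles, and all 20 libraries were used. The study states separate animals, but no batch is given.

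Genes were filtered with filterByExpr, scaled by TMM and tested with the quasi-likelihood test of edgeR 4.0.16 in R 4.3.3, two-sided, with Benjamini-Hochberg adjustment over all genes tested and a threshold of 0.05. Log2 CPM had a prior count of 2, and SEs came from the F statistic. The study used DESeq2, run here (1.42.0) as an alternative. Slopes used the *Arntl* level centred within group, with *Arntl* itself left out of the genes tested. The fits were tested on simulated data. Totals of 11153820 to 27045668 counts gave at least 72 counts of *Arntl* in every library, and no library was a copy of another. The members and lists were chosen with earlier results of these data known. All members are named; of the other lists, genes called or needed to describe the list; and the 5 highest and 5 lowest correlations with *Arntl*. Fits with the presence of Y transcripts were added after seeing the data. One further clock gene is not reported here.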

Additional observations from a re-analysis of the deposited data

Results flagged for a closer look

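Among 28 clock genes examined in the 8 control libraries, 4 had a single library far from the other 7 by Dixon's ratio (critical value 0.526), where chance alone gives about 1 in 20. *Dbp* was at 6.72 log2 CPM in control replicate 3, against 7.51 to 7.92 in the others (ratio 0.654); the same library had the highest *Arntl* of the control group. Control replicate 8, which also had the lowest chondrocyte and the highest skeletal muscle marker sums, held the other 3: *Tef* at 9.10 log2 CPM against 8.03 to 8.51, *Bhlhe40* at 7.95 against 7.04 to 7.44 and *Csnk1d* at 6.73 against 6.33 to 6.50. TMM scaling gave control replicate 8 an effective size of 13085164 for a total of 18221500 counts. This raises every CPM value of that library above its value on library totals alone. The part of that scaling and of the muscle markers in those 3 values was not tested.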

How the results depend on the processing

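Between the groups, the count of genes called was 1786 with the replicate block, 930 with the skeletal muscle covariate and 0 with the osteoclast covariate, against 3673. The count of core clock genes called was 0 with library totals alone, with no filter, with the replicate block, and with the skeletal muscle or osteoclast covariate. It was 2 in the 16 libraries with shared replicate numbers and no block, where *Nr1d2* joined *Cry2*, and 0 to 1 with 1 library left out. Library totals moved the median log2 fold change of all genes to 0.12 and the higher share of called genes from 52.2% to 71.9%.

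The sign of the log2 fold change was unstable for 4 core genes that no fit called. *Arntl* was -0.29 with Y transcripts as a factor and -0.25 with a Y chromosome score, and -0.13 to 0.42 with 1 library left out. *Clock* was 0.10 with library totals and 0.14 with the osteoclast covariate, and -0.10 to 0.046 with 1 library left out. *Per1* was -0.079 with the osteoclast covariate, -0.19 with the replicate block and -0.10 in the same 16 libraries without it. *Nr1d1* was 0.036, 0.21 and 0.12 with library totals, the osteoclast and the muscle covariate. Of the further genes, *Tef* (adjusted p = 0.0547) passed the threshold in 8 of 13 alternatives.

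The count of genes following *Arntl*, 21, was 63 with the muscle covariate, 12 in knockout alone, 9 with the Y score, 3 with Y transcripts as a factor, 0 in control alone and with the replicate block, and 6 with *Dbp* as the reference. It ran from 5 (without knockout replicate 4) to 39 (without control replicate 8), and was 13 without knockout replicate 2. Core clock genes among them were 1 with library totals, with Y transcripts as a factor and with *Dbp* as the reference, and 0 in control alone and with the replicate block. *Per2* and *Per3* kept negative slopes in all 10 alternatives. The slope of *Cry2* was 0.019 with the replicate block. Over all genes, same-numbered libraries of the 2 groups correlated at -0.36 to 0.17, and 2 of 8 pairs exceeded 0.1. No sample correlated best with its own number (0 of 8), so all genes together showed no pairing. *Arntl*, however, was highest in replicates 3, 4 and 5 of both groups (24.5, 14.9 and 12.6 CPM in control). The SE of its log2 fold change was 0.23 with the replicate block and 0.47 in the same 16 libraries without it. What same-numbered libraries share was not tested.

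Several correlations with *Arntl* changed sign, and not only weak ones. In control, library totals gave 0.13 for *Cry1* and 0.079 for *Nr1d2*, and leaving out 1 library gave -0.36 to 0.31 for *Per1* and -0.37 to 0.070 for *Cry1*. In knockout, *Cry2* was 0.022 without the 2 extreme libraries. With Y transcripts *Cry1* was 0.43 and *Nr1d1* -0.43, and without them *Cry2* was 0.030, *Nr1d2* 0.19 and *Dbp* 0.27. Over all 12 knockout libraries *Nr1d2* had -0.73 and *Dbp* -0.75. The cause was not tested for any of these.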
